A study of Saccharomyces cerevisiae with 14 samples.

Results

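The genes described here are 123 Saccharomyces cerevisiae genes whose transcripts were flat or lower 7 min after a glutamine pulse and higher by 24 min. They were chosen on the log2 intensity of probe sets with a standard gene name, averaged over 3 arrays per time. A gene was taken when its mean at 7 min exceeded the mean at -10 min by at most 0.3 and its mean at 24 min exceeded that at 7 min by at least 1, which is a fold of 2. Symbols that begin with LYS, BAP, TAT, AGP, HIS, FRE, FIT, MRP, RSM, WSC, SLT or YPS were left out. The table holds 5498 S. cerevisiae probe sets, of which 4990, for 4950 genes, have a standard name, and the 123 genes are read by 123 of these. Across all 5498 probe sets, 151 (2.75%) met both values, and 17 of those had no standard name and 11 were left out by their symbol.

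The study followed the mRNA of the wild-type yeast strain YSBN6 through a nitrogen upshift on 14 Affymetrix Yeast Genome 2.0 arrays. Cells grew in a batch fermentor at pH 5 on minimal medium with glucose and with proline as the nitrogen source, and all times after 0 follow a pulse of glutamine into that medium. Experiments BY003, BY008 and BY012 were each sampled at -10, 7 and 24 min and are called biological triplicates by the submitters, and BY008 was also sampled at 3, 10, 14, 56 and 120 min. No sample here is labelled with a mock pulse, so time in the fermentor and the response to glutamine cannot be told apart, and proline was not removed.

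Proline is a poor nitrogen source for yeast and glutamine a preferred one. Glutamine supply is known to activate the TORC1 kinase, which favours ribosome production and growth, and to switch off genes for poor nitrogen sources through nitrogen catabolite repression, the exclusion of GATA activators from the nucleus. The wall of a growing cell is remodelled all the time. Strain on it is sensed at the plasma membrane and passed by protein kinase C to the MAP kinase Slt2 and the factor Rlm1, whose targets build and repair glucan, chitin and mannoprotein. A related MAP kinase cascade, with Fus3 and Kss1, carries the mating pheromone signal to the factor Ste12. Iron supply is controlled by Aft1 and Aft2, which switch on siderophore transporters and the high-affinity iron uptake system at the cell surface. These accounts are background and not results of the arrays.

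Arrays of the same time correlated at r = 0.929 to 0.986 over the S. cerevisiae probe sets, as a description. The median difference over all these probe sets was -0.33 log2 units between -10 and 7 min and -0.01 between 7 and 24 min, so the values of the 123 genes at 7 min sit on a lower background. The median log2 value of the -10 min array was 11.2 in BY012, 11.09 in BY003 and 11.05 in BY008. Without the -10 min array of BY012, a choice made after the data were seen, the rule took 121 genes, 117 of them among the 123. Probe sets for the other yeast on the array gave an estimate of signal without a target, and 114 of the 123 genes were above the 95th percentile of those probe sets on all 14 arrays. The other 9, which were SPC24, RIM9, ECM34, BAG7, RRG8, MND1, CTF13, MMS21 and YJU2, were above it on 6 to 13 arrays, so part of their values lie near background. Arrays of bulk RNA cannot tell a change in the share of cells that express a gene from a change in RNA per cell.

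**Figure D1:**
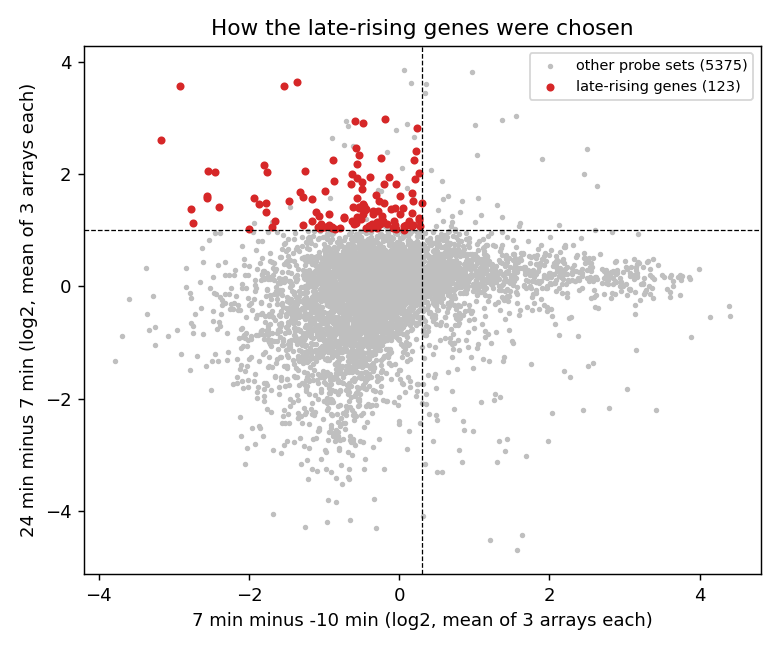
Each point is 1 of 5498 S. cerevisiae probe sets, with its log2 difference from -10 to 7 min on the horizontal axis and from 7 to 24 min on the vertical axis (means of 3 arrays per time). The 123 genes are in red, left of the dashed line at 0.3 and above the one at 1, and the grey points in the same region are the 17 without a standard name and the 11 left out by symbol.

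The plot of the values behind the choice shows no gap at either threshold. Just inside the threshold on the later difference stood ODC2, a mitochondrial oxodicarboxylate carrier, at 1.001, CDD1, cytidine deaminase, at 1.017 and QDR3, a drug exporter, at 1.017. Just outside it stood AAD10 at 0.995, CHS3 at 0.992 and ORT1 at 0.991. Just inside the threshold on the earlier difference stood GPX2, a peroxidase, at 0.298, CHS7 at 0.274 and SKT5 at 0.266. CHS7 and SKT5 serve chitin synthase III, whose catalytic subunit is CHS3. Just outside it were PRM5 at 0.345, HMS2 at 0.427 and MRH4 at 0.489. PRM5 had a later difference of 3.446, exceeded among the chosen genes by HSP30, NRG1 and SRL3 alone, and was left out for its value at 7 min.

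Because the rule used the -10, 7 and 24 min arrays, the values at those times are given as a description. All 3 experiments had a higher value at 24 than at 7 min for 120 of the 123 genes, and 60 genes differed by at least 1 in each experiment. The lowest 24 min array lay above the highest 7 min array for 114 genes, against 28.3% of all probe sets, a count that the rule itself favours. The median difference from 7 to 24 min was 1.44 in BY003 (-0.05 over all probe sets), 1.37 in BY008 (0.06 over all) and 1.47 in BY012 (-0.05 over all). From -10 to 7 min the medians were -0.37, -0.48 and -0.65 in the same order.

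The same rule was also applied to 2 experiments at a time and the third was then read as a description. With BY003 held out, 123 genes were chosen, 110 of them among the full set, and 97 (78.9%) differed by at least 1 from 7 to 24 min in BY003, where 3.84% of all probe sets did. With BY008 held out, 126 genes were chosen, 99 of them among the full set. Of these 126, 71 (56.3%) differed by at least 1 in BY008, against 4.69% of all. With BY012 held out, 128 genes were chosen, 103 of them among the full set. Of these 128, 70 (54.7%) differed by at least 1 in BY012, against 4.11% of all. In the held-out experiment the later difference was above 0 for 123 of 123, 118 of 126 and 124 of 128 genes.

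The genes differed among themselves at 7 min. A group of 33 stood at least 1 below the -10 min mean, 46 stood between -1 and -0.3, and 44 lay within 0.3 of it. At 24 min 51 genes stood at least 1 above their -10 min mean and 41 were 0.3 to 1 above. Another 16 were within 0.3 of it and 15 were still more than 0.3 below. In the 33 genes with the deep dip the median at 24 min was -0.04 from the starting level, and 14 of them stood above it. In the groups with a shallow dip and with none the median was 0.83 and 1.28. The rule itself favours this order, since a later difference of at least 1 puts every gene with a dip smaller than 1 above its start. Nothing further is read from it. HSP30 and SRL3 alone combined a dip of at least 1 with a level at least 1 above the start at 24 min.

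**Figure D2:**
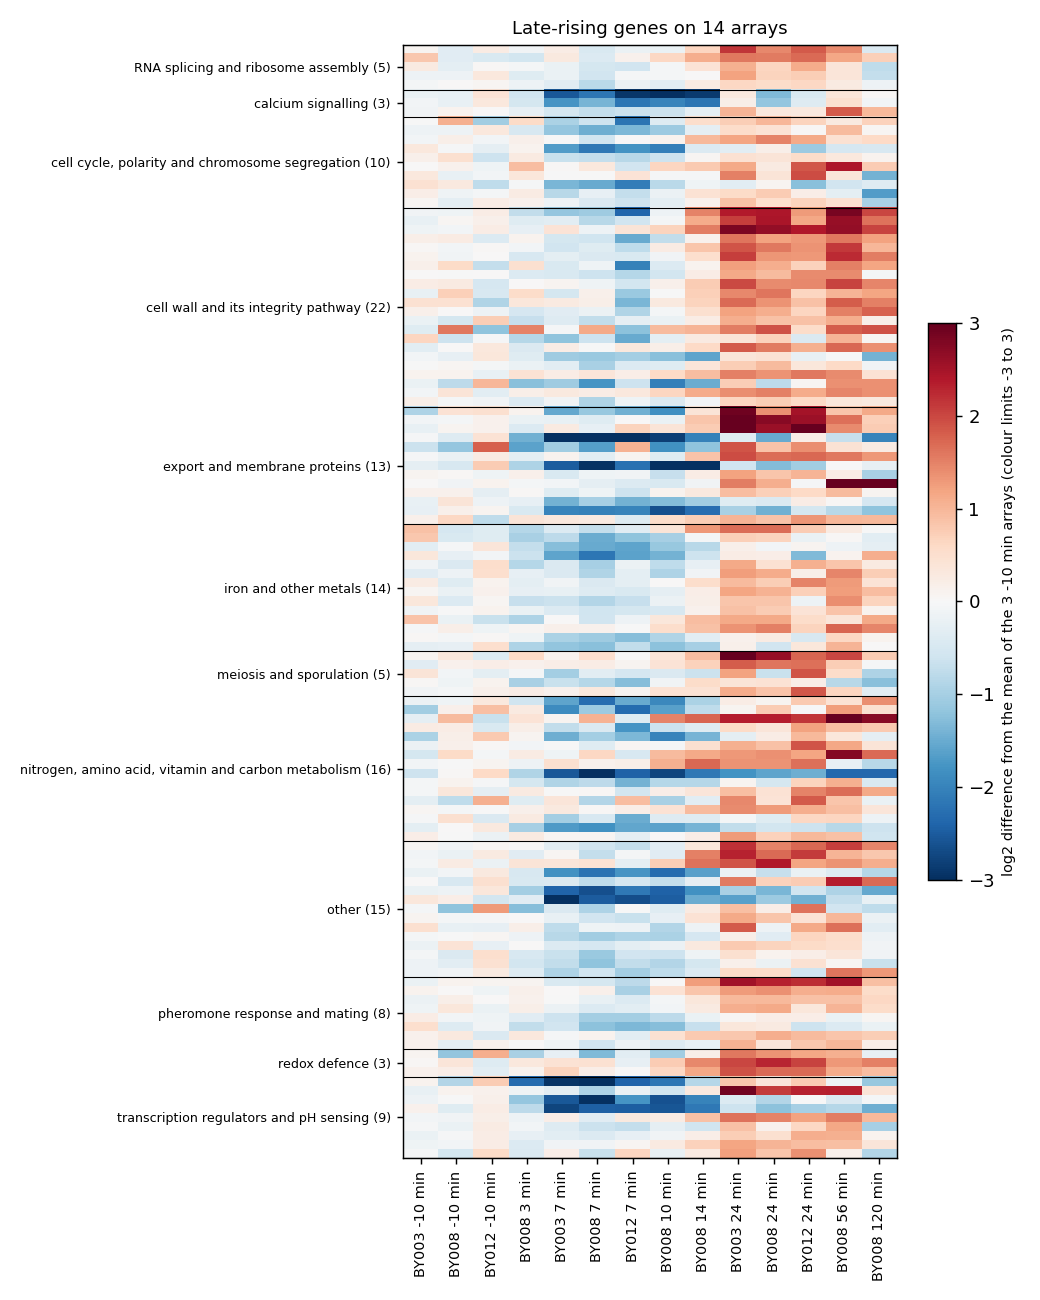
Log2 difference of each of the 123 genes (rows, grouped by known role) from the mean of its 3 arrays at -10 min, on all 14 arrays in order of time (columns). The 7 min columns are mostly blue (lower) or pale and the 24 and 56 min columns mostly red (higher), with members of every role group among the red.

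BY008 gives the course between and after those times, with 1 array a time and hence no replicate. Relative to its own -10 min array, the median of the 123 genes was -0.18 at 3 min, -0.48 at 7 min, -0.20 at 10 min, 0.20 at 14 min, 0.81 at 24 min, 0.91 at 56 min and 0.35 at 120 min. Over all probe sets the medians ran from -0.02 at 3 min to -0.34 at 10 min and -0.18 at 56 min. The lowest time of the course was 7 min for 60 genes, 10 min for 23, 3 min for 17, 120 min for 14, -10 min for 6 and 14 min for 3. The highest was 56 min for 58 genes, 24 min for 43, -10 min for 14, 120 min for 5 and 14 min for 3. More of the genes thus had their highest value at 56 than at 24 min, the time that the rule used.

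**Figure D3:**
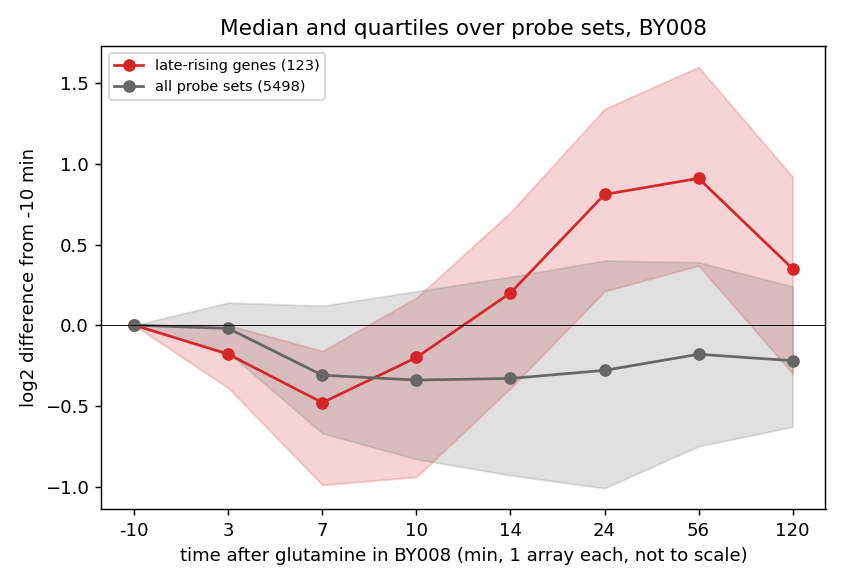
Median (line) and quartiles (band) of the log2 difference from the -10 min array of BY008 at each time in minutes (spaced evenly, not to scale), for the 123 genes in red and all S. cerevisiae probe sets in grey. The median of the 123 genes is lowest at 7 min (-0.48) and highest at 56 min (0.91), and that of all probe sets lies below 0 at every later time.

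The 3, 14, 56 and 120 min arrays were not used to choose the genes, so differences among them were tested. The test was a limma model fitted to all 5498 probe sets and 14 arrays, with Benjamini-Hochberg adjusted p under 0.05 as the call. Each of these times has 1 array, and the model assumes that it varies as much as the replicated times do. The model had no term for experiment, so differences between experiments count in its error, and a fit with that term is given below. These arrays are labelled with the experiment, BY008, that also gave 3 of the 9 arrays behind the rule, so they are no separate experiment.

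Between 3 and 56 min, 33 of the 123 genes (26.8%) rose and 0 fell. Of all probe sets, 3.47% rose and 7.55% fell. The median log2 difference of the 123 was 0.99, beside -0.14 over all probe sets, and 114 of the 123 were above 0, compared with 2325 of 5498. Without adjustment 58 genes were higher (10.7% of all) and 1 lower (18.6% of all) at p under 0.05. At a fold of 2, 60 genes were higher (7.09% of all) and 1 was lower (15.5% of all). The number of calls rests in part on BY003, whose arrays enter through the estimate of the spread. Without BY003 only PRM10, KTR2, RCR1, RTA1 and RCN1 were called, 5 in all, and without BY012 47 genes were.

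Fewer genes had moved by 14 min. Of the 123, 11 (8.94%) rose from 3 to 14 min, where 5.13% of all probe sets did, and 5 (4.07%) fell, where 13.1% of all did. The median was 0.32, beside -0.28 over all. All 5 that fell belonged to the 33 genes with the deep dip, and 7 of the 11 that rose to the 44 with none. These groups were sorted by their 7 min values, those of BY008 included. In the deep-dip group the BY008 median, relative to its starting array, was -0.46 at 3 min and -0.91 at 14 min. A fall between these times can thus restate the dip used for sorting, and nothing is read from the split. The share of all probe sets with such a dip that fell was not worked out. At a fold of 2, 24 genes were higher (7.77% of all) and 11 lower (19.3% of all). With array medians subtracted 22 rose and 1 fell, and with quantile normalization 26 rose and 1 fell. Without BY003 1 gene rose and 0 fell, and without BY012 22 rose and 5 fell.

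At 120 min 8 genes (6.5%) were higher than at 3 min, against 0.928% of all probe sets, and 1, SPC24, was lower, against 2.51%. Their median stood at 0.49, beside -0.18 for all. At a fold of 2, 36 were higher (3.16% of all) and 6 lower (10.8% of all). With quantile normalization 19 were higher and 0 lower by limma. Without BY003 0 were higher and 0 lower, without BY012 17 were higher and 2 lower, and without the replicated-time arrays of BY008 2 were higher. From 56 to 120 min 0 genes were called higher (0.218% of all) and 0 lower (0.0182% of all) by limma. The median was nonetheless -0.59, beside -0.04 over all, with 104 of the 123 below 0. At an unadjusted p under 0.05, 29 were lower (5.53% of all) and 0 higher (3.82% of all). At a fold of 2, 28 were lower, where 3.13% of all were, and 0 were higher, where 3.2% of all were.

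**Figure D4:**
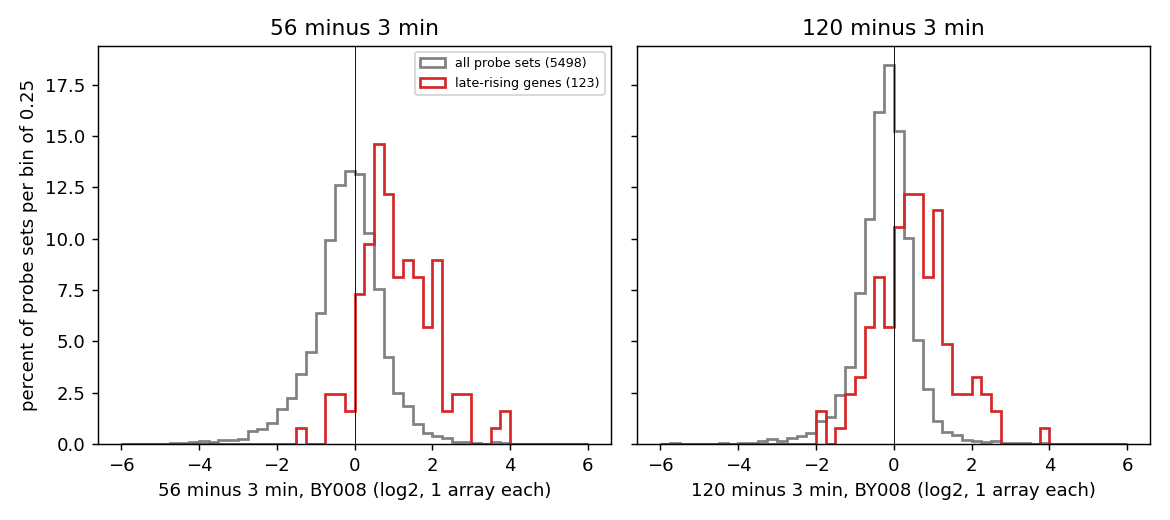
Histograms of the log2 difference between arrays that the choice did not use, 56 minus 3 min (left) and 120 minus 3 min (right) of BY008, as the percent of probe sets in each bin, for the 123 genes in red and all S. cerevisiae probe sets in grey. The 123 genes have medians of 0.99 and 0.49, and all probe sets -0.14 and -0.18.

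The genes were grouped by known role once they had been listed, into 11 groups and a remainder of 15, and the groups are a description. Genes named below beyond the fixed naming rule were picked for their role after their values were seen. Between 3 and 56 min 26.8% of the 123 genes and 3.47% of all probe sets rose, and the count of each group is to be read beside these shares.

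The largest group was 22 genes of the cell wall and its integrity pathway, of which 11 rose from 3 to 56 min and 0 fell, with a median of 1.81. Of the 123 genes 26.8% rose and 0 fell, with a median of 0.99. Of all probe sets 3.47% rose and 7.55% fell, with a median of -0.14. KTR2, a Golgi mannosyltransferase that extends sugar chains on wall proteins, had log2 values of 9.18, 9.21 and 9.52 at -10 min and 9.72, 9.15 and 9.69 at 7 min in BY003, BY008 and BY012. At 24 min it stood at 12.13, 11.95 and 11.70, above every earlier array. The unused arrays of BY008 read 9.06 at 3 min, 10.85 at 14 min, 11.95 at 56 min and 11.32 at 120 min. KTR2 and the exporter gene TPO2 were the 2 genes called in all 3 comparisons with 3 min. The log2 changes of KTR2 were 1.79 ± 0.34 (SE, limma adjusted p = 0.00978) at 14 min, 2.89 ± 0.34 (adjusted p = 0.00271) at 56 min and 2.26 ± 0.34 (adjusted p = 0.0122) at 120 min.

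SRL3 was placed here only for its known appearance in wall stress profiles, not for a function in building the wall. The placement was made after the genes were listed, and SRL3 counts among the 11 of the 22 that rose to 56 min. SRL3 read 10.08, 10.05 and 10.41 at -10 min, 9.02, 9.11 and 7.81 at 7 min, and 12.55, 12.61 and 11.46 at 24 min. The 3 times did not overlap, and its later difference of 3.56 ± 0.08 (SD over the 3 experiments) is an 11.8-fold difference. In BY008 it was at 9.44 at 3 min, 11.68 at 14 min and 13.02 at 56 min. It rose by 2.23 ± 0.68 (SE, limma adjusted p = 0.0495) from 3 to 14 min and by 3.58 ± 0.68 (adjusted p = 0.0163) to 56 min.

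Kinase and phosphatase genes of the pathway were among these 22. KDX1, a kinase-like relative of Slt2 and a known Rlm1 target, stood at 9.12, 8.60 and 8.87 at 7 min and 11.51, 11.88 and 10.59 at 24 min. It rose by 2.98 ± 0.52 (SE, limma adjusted p = 0.0129) from 3 to 56 min. PTP2, a tyrosine phosphatase that acts on MAP kinases, rose by 2.19 ± 0.30 (adjusted p = 0.00471). MSG5, a dual-specificity phosphatase of Slt2 and Fus3, was at 10.72 at 3 min and 11.51 at 56 min, a difference that was not called (0.79 ± 0.37, adjusted p = 0.186). MTL1, a membrane sensor of wall strain, differed by 1.78 ± 0.50 and missed the call (adjusted p = 0.0524).

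Several of the 22 genes act on chitin. CHS1, the chitin synthase that repairs the wall after division, read 11.13, 11.07 and 10.14 at 7 min and 13.26, 12.87 and 12.96 at 24 min, with no overlap. Its change from 3 to 56 min, 1.48 ± 0.49, was not called (limma adjusted p = 0.0842). RCR1, a membrane protein known to lower chitin deposition, rose by 2.72 ± 0.36 (adjusted p = 0.0041) to 56 min and was still 2.02 ± 0.36 higher at 120 min (adjusted p = 0.0209). SKT5 and CHS7 rose by 0.97 ± 0.25 (adjusted p = 0.0381) and 1.29 ± 0.33 (adjusted p = 0.0401). CRH1, which links chitin to glucan, stood at 11.72, 12.04 and 10.15 at 7 min and 13.41, 13.27 and 12.85 at 24 min, and its change of 1.03 ± 0.83 from 3 to 56 min was not called (adjusted p = 0.438).

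Among wall proteins, PIR3 rose by 2.01 ± 0.38 (SE, limma adjusted p = 0.0166) from 3 to 56 min and was 2.27 ± 0.38 higher at 120 min (adjusted p = 0.0187), its highest value of the course at 12.28. PIR5, of the same family, rose by 1.84 ± 0.28 to 56 min (adjusted p = 0.00841) and read 8.01 at 120 min, near its -10 min value of 8.04. PST1, CWP1 and SCW10, 2 wall mannoproteins and a glucanase-like protein, had differences of 1.46, 1.85 and 0.33 to 56 min, with adjusted p of 0.288, 0.103 and 0.885. SCW10 varied widely between experiments, from 10.09 to 12.88 at -10 min. ECM34 and BAG7 were near background on part of the arrays, and ECM34 fell by 1.22 ± 0.37 from 3 to 14 min (adjusted p = 0.0482).

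The pheromone group held 8 genes, of which PRM10 alone was called. PRM10, named for its regulation by pheromone, read 9.0, 8.94 and 8.67 at 7 min and 11.99, 11.77 and 11.68 at 24 min. The 2 sets of values were tight and far apart, by 2.94 ± 0.10 (SD over the 3 experiments). In BY008 it went from 9.55 at 3 min to 10.71 at 14 min, 11.99 at 56 min and 10.37 at 120 min. It rose by 1.16 ± 0.27 (SE, limma adjusted p = 0.0206) to 14 min and 2.43 ± 0.27 (adjusted p = 0.00258) to 56 min, the smallest adjusted p among the 123 genes in that comparison.

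The other pheromone genes were the cell fusion gene FUS1, the agglutinin anchor AGA1, the MAP kinase KSS1, the G protein alpha subunit GPA1, the regulator ASG7, the transcription factor KAR4 and PRM4. Their differences from 7 to 24 min lay between 1.04 and 1.51. FUS1 stood at 9.36, 9.49 and 8.38 at 7 min and 10.63, 10.72 and 10.44 at 24 min. From 3 to 56 min these 7 genes were 0.14 to 1.00 higher in BY008, and none was called (adjusted p from 0.0917 to 0.76). GPA1 and ASG7 were close to their starting level at 24 min, with differences of 0.15 and 0.00 between -10 and 24 min.

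**Figure D5:**
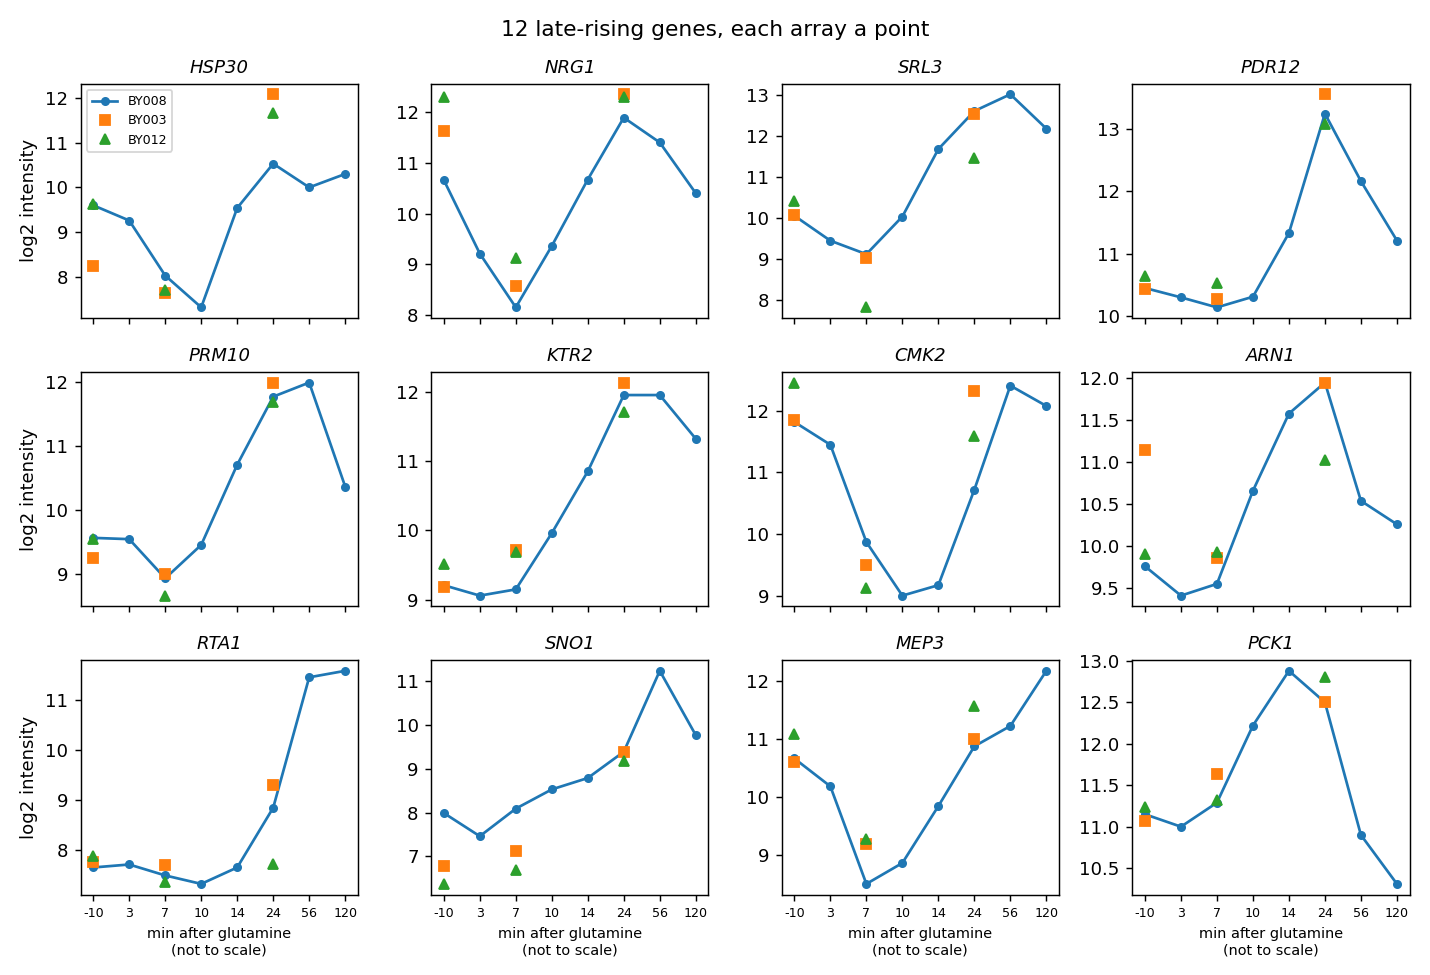
Log2 intensity at each time in minutes (spaced evenly, not to scale) for 12 of the genes, with BY008 as a line through 8 times and BY003 and BY012 as points at -10, 7 and 24 min. HSP30, NRG1 and SRL3 dip by 7 min and stand higher at 24 min, KTR2 and PDR12 show no dip, CMK2 is below its 3 min value from 7 to 24 min in BY008, RTA1 and SNO1 are highest after 24 min, and PCK1 is highest at 14 min.

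Another 14 genes handle iron and other metals, and 6 of these rose from 3 to 56 min, beside 26.8% of the 123 and 3.47% of all probe sets. ARN1, ARN2, SIT1 and ENB1 are transporters of iron-siderophore complexes. ARN1 read 9.86, 9.55 and 9.93 at 7 min and 11.94, 11.95 and 11.03 at 24 min. It had an early course in BY008, from 9.41 at 3 min to 11.58 at 14 min, a rise of 2.17 ± 0.65 (SE, limma adjusted p = 0.0482), and was at 10.54 at 56 min. ENB1 was higher later, at 12.46 at 56 min, and rose by 2.08 ± 0.50 from 3 min (adjusted p = 0.0324). ARN2 and SIT1 had differences of 1.00 ± 0.65 and 0.73 ± 0.68 at 56 min that were not called (adjusted p = 0.335 and 0.494).

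SIT1 varied between experiments, with 9.59, 9.0 and 9.57 at 7 min and 11.39, 11.36 and 9.84 at 24 min. In BY012 the later difference was 0.27. At 120 min it stood at 12.25, the highest of its course, and its difference from 56 min of 0.98 was the largest upward one among the 123 genes but was not called (limma adjusted p = 0.719). FET3, the multicopper oxidase of high-affinity iron uptake, also had a higher value at the end of the course, with 12.66 at 56 min and 13.44 at 120 min. MRS4, a mitochondrial iron importer, returned to its starting level at 24 min (0.06 above it).

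Other metal genes that rose to 56 min were the manganese transporter SMF1 (1.51 ± 0.28, SE, limma adjusted p = 0.0163), TRE1, which directs Smf1 to the vacuole (1.04 ± 0.27, adjusted p = 0.0392), the zinc transporter YKE4 (1.70 ± 0.37, adjusted p = 0.0251), CIA2 of the iron-sulfur cluster assembly machinery (1.58 ± 0.39, adjusted p = 0.0365) and the porphyrin transporter PUG1 (1.96 ± 0.51, adjusted p = 0.0401). The copper-sensing factor CUP2 and PCA1, a gene of the metal-transporting ATPase family, were 1.69 and 1.70 higher without a call (adjusted p = 0.0689 and 0.0798).

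Exporters and other membrane proteins made up 13 of the genes, and 4 of these rose to 56 min, beside 26.8% of the 123 and 3.47% of all probe sets. HSP30, a plasma membrane protein that restrains the proton pump Pma1, had the largest later difference of the set. It read 8.24, 9.60 and 9.63 at -10 min, 7.63, 8.03 and 7.71 at 7 min, and 12.08, 10.53 and 11.66 at 24 min. That is 3.63 ± 1.02 (SD over the 3 experiments), or 12.4-fold, with the smallest difference in BY008. In BY008 it was lowest at 10 min (7.32) and at 10.00 at 56 min, and its 56 min value was not called against 3 min (0.74 ± 0.78, limma adjusted p = 0.55).

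PDR12, an ABC transporter that exports weak organic acids, had no dip, with 10.28, 10.14 and 10.53 at 7 min and 13.55, 13.24 and 13.08 at 24 min. It was 7.86-fold higher at 24 than at 7 min, and in BY008 had gone back to 12.16 at 56 min and 11.21 at 120 min. From 3 min it rose by 1.04 ± 0.29 (SE, limma adjusted p = 0.0383) to 14 min and 1.86 ± 0.29 (adjusted p = 0.00841) to 56 min. AQY2, a gene of the water channel family whose function in this strain was not examined, had the greatest difference between -10 and 24 min, 3.05. Its values at 24 min were 11.39, 10.72 and 11.48. It rose by 1.83 ± 0.47 to 56 min (adjusted p = 0.0379).

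RTA1, a membrane protein linked to resistance to aminocholesterol, had its main difference outside the times of the rule. It read 7.68, 7.48 and 7.34 at 7 min and 9.29, 8.84 and 7.71 at 24 min, with BY012 near its 7 min value. BY008 then stood at 11.46 at 56 min and 11.59 at 120 min, against 7.70 at 3 min. The rises were 3.76 ± 0.58 (SE, limma adjusted p = 0.00841) and 3.89 ± 0.58 (adjusted p = 0.0122), and the change by 14 min was -0.07.

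TPO2, a polyamine exporter, rose by 1.14 ± 0.30 (SE, limma adjusted p = 0.0333) to 14 min, 1.88 ± 0.30 (adjusted p = 0.00987) to 56 min and 1.60 ± 0.30 (adjusted p = 0.0267) to 120 min. The probe set behind these TPO2 values may read several transcripts, and a further TPO2 probe set gave 1.36 from -10 to 7 min and 2.96 from 7 to 24 min, which is no late rise by the rule. TPO4, also a polyamine exporter, belonged to the deep-dip genes, with 9.61, 9.14 and 9.87 at 7 min and 11.50, 10.80 and 11.06 at 24 min, and it fell by 2.06 ± 0.59 from 3 to 14 min (adjusted p = 0.0404). QDR3 likewise fell by 1.85 ± 0.38 in that interval (adjusted p = 0.0134). TPO3 was not called in any of the 4 comparisons.

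NRG1 and NRG2, with some of the deepest dips, are a pair of related zinc finger repressors known for their part in glucose repression and in the response to pH. NRG1 read 11.63, 10.66 and 12.30 at -10 min, 8.58, 8.15 and 9.13 at 7 min, and 12.35, 11.89 and 12.30 at 24 min. Its mean differences were -2.91 from -10 to 7 min and 3.56 ± 0.34 (SD over the 3 experiments) from 7 to 24 min. Those of NRG2 were -2.57 and 1.61, and NRG2 fell by 1.36 ± 0.36 (SE, limma adjusted p = 0.0323) from 3 to 14 min. Neither was called at 56 min (NRG1 2.19 ± 0.68, adjusted p = 0.0688, and NRG2 -0.07 ± 0.36, adjusted p = 0.907).

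The group of 9 transcription regulators and pH-sensing genes held 4 that rose to 56 min, beside 26.8% of the 123 and 3.47% of all probe sets. SMP1, a MADS-box factor, stood at 7.95, 7.34 and 8.07 at 7 min and 11.15, 10.35 and 10.57 at 24 min. It rose by 2.45 ± 0.44 to 56 min (SE, limma adjusted p = 0.0133) and was back at 8.66 at 120 min. INO2, an activator of phospholipid genes, rose by 1.10 ± 0.25 to 14 min (adjusted p = 0.0192) and by 1.32 ± 0.25 to 56 min (adjusted p = 0.0164). COM2 and RTG3, the latter a factor of mitochondrial retrograde signalling, rose by 1.69 ± 0.34 (adjusted p = 0.0195) and 1.32 ± 0.32 (adjusted p = 0.0333). GZF3, a GATA repressor of nitrogen genes, went from 11.05, 11.19 and 11.34 at -10 min to 8.64, 8.15 and 9.42 at 7 min and 10.79, 10.31 and 11.20 at 24 min.

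Nitrogen, amino acid, vitamin and carbon metabolism took in 16 genes, of which only SNO1 and SNZ1 rose to 56 min. These 2 neighbours on chromosome XIII work together in vitamin B6 synthesis. SNO1 stood at 7.13, 8.09 and 6.69 at 7 min, 9.39, 9.39 and 9.18 at 24 min and 11.24 at 56 min in BY008. SNO1 rose by 3.77 ± 0.75 (SE, limma adjusted p = 0.0188) from 3 to 56 min and SNZ1 by 2.51 ± 0.56 (adjusted p = 0.0257). BIO3, of biotin synthesis, was 1.23 ± 0.44 higher without a call (adjusted p = 0.103).

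MEP3, an ammonium permease, and CAR1, arginase, are both known targets of nitrogen catabolite repression. MEP3 read 10.61, 10.67 and 11.10 at -10 min, 9.20, 8.51 and 9.28 at 7 min, and 11.01, 10.88 and 11.58 at 24 min. At 120 min it was at 12.18, 2.0 ± 0.45 above 3 min (SE, limma adjusted p = 0.0467), its highest value of the course. CAR1 stood at 10.49, 11.68 and 12.43 at -10 min, 9.64, 10.45 and 9.23 at 7 min, and 11.62, 12.29 and 11.51 at 24 min, and none of its tested differences was called.

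PCK1, phosphoenolpyruvate carboxykinase of gluconeogenesis, had another course. It read 11.64, 11.29 and 11.32 at 7 min and 12.51, 12.50 and 12.80 at 24 min. In BY008 it peaked at 12.88 at 14 min and stood at 10.90 at 56 min and 10.31 at 120 min. It rose by 1.88 ± 0.26 (SE, limma adjusted p = 0.00506) from 3 to 14 min, and its 56 min value differed from 3 min by -0.10. The amino acid genes ASN1, ARG4 and ARG7, for asparagine and arginine synthesis, had later differences of 1.69, 1.06 and 1.10 with wide spreads of 1.14, 1.00 and 0.83 (SD over the 3 experiments).

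The 3 genes of calcium signalling are known as part of the calcineurin pathway or its output. CMK2, a calmodulin-dependent kinase, read 11.85, 11.82 and 12.46 at -10 min and 9.50, 9.87 and 9.12 at 7 min. In BY008 it was still at 9.17 at 14 min, a fall of 2.28 ± 0.66 from 3 min (SE, limma adjusted p = 0.0421). At 24 min the experiments differed, with 12.33, 10.72 and 11.59, and BY008 reached 12.41 at 56 min. RCN2, which regulates calcineurin as RCN1 does, stood at 9.86 at 14 min and 12.53 at 56 min. RCN1 rose by 2.1 ± 0.34 (adjusted p = 0.00987) from 3 to 56 min.

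The 10 genes of cell cycle, polarity and chromosome segregation had a median of 0.04 between 3 and 56 min, and MSB3, a GTPase-activating protein of polarised growth, alone was called (1.40 ± 0.33, SE, limma adjusted p = 0.0321). GIC2, an effector of the polarity GTPase Cdc42, stood at 10.11, 10.45 and 8.87 at 7 min and 11.81, 12.05 and 11.72 at 24 min. The cyclin genes PCL2 and CLB1 and the replication gene CDC6 had later differences of 1.48, 1.46 and 1.16. The mitotic cyclin CLB1 and CDC6 stood at -0.41 and -0.50 from their -10 min means at 24 min. The kinetochore gene SPC24 fell by 1.93 ± 0.36 from 3 to 120 min (adjusted p = 0.0247), and it was among the 9 genes near background.

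The 5 genes of RNA splicing and ribosome assembly and the 5 of meiosis and sporulation had none called at 56 min. LUC7, of the U1 splicing particle, had an even later difference of 1.95 ± 0.05 (SD over the 3 experiments) and stood at 9.40 at 56 min and 7.57 at 120 min. REA1, an ATPase of large ribosomal subunit maturation, stood at 12.58, 11.88 and 12.41 at 7 min and 13.86, 13.84 and 13.99 at 24 min. IME2, a meiosis kinase, rose by 1.53 ± 0.30 (SE, limma adjusted p = 0.0119) from 3 to 14 min and was at 8.12 at 56 min. MEI4, a meiotic recombination gene, had values of 6.46, 6.85 and 6.34 at 7 min and 9.34, 8.96 and 8.10 at 24 min. The redox genes SRX1, YHB1 and GPX2 had later differences of 2.0, 1.90 and 1.48, and none was called at 56 min.

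Of the 15 genes with other or unknown roles, DIA1 and ECL1 rose by 2.07 ± 0.34 (SE, limma adjusted p = 0.01) and 2.82 ± 0.50 (adjusted p = 0.0133) from 3 to 56 min, and CRG1 by 2.01 ± 0.52 (adjusted p = 0.0402). TDA6 rose by 1.85 ± 0.42 to 14 min (adjusted p = 0.0192). HLR1 and YGK3, a kinase gene of the metabolic group, had dips of -2.77 and -2.75 and stood at -1.39 and -1.62 from their start at 24 min. RTC2, a vacuolar membrane protein, had the deepest dip of all 123, from 12.32, 11.97 and 12.80 at -10 min to 9.19, 9.27 and 9.14 at 7 min, and at 24 min it was lowest in BY008 at 10.84 and highest in BY012 at 12.57.

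The genes lowest at 120 relative to 56 min were RIM9, RRG8, SMP1, LUC7 and MMS21, with differences of -2.16, -1.97, -1.94, -1.83 and -1.78. None passed the test (limma adjusted p from 0.0652 to 0.487), and RIM9, RRG8 and MMS21 were near background on part of the arrays. The highest were SIT1, MEP3, FET3, HLR1 and GIC2, at 0.98, 0.95, 0.78, 0.49 and 0.40, also without a call.

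Of 24 lists of pathway genes, 9 held any of the 123 genes. The iron regulon held 6 of 28 measured genes (21.4%), pheromone response 7 of 38 (18.4%), cell wall synthesis 5 of 36 (13.9%) and zinc, copper and vitamin uptake 3 of 27 (11.1%). Of the 4990 probe sets with a standard name, 123 were members. The 2.75% of all probe sets that met the values also counts those without a standard name or left out by symbol. Nitrogen catabolite repression held 3 of 30 (10.0%), G2, M and early G1 genes 3 of 43 (6.98%), Start and S phase 3 of 55 (5.45%), amino acid synthesis 2 of 42 (4.76%) and lipid synthesis 1 of 31 (3.23%). The 33 stress genes, the 63 ribosome assembly genes and the 56 cytosolic ribosomal protein genes held 0. These shares describe lists written with results of these arrays known. The 9 lists hold none of the symbols that the rule left out, such as FRE1 and SLT2. Their shares, and the counts that follow, are thus not those of the whole pathways.

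Every measured gene of these lists, the 123 included, was then compared between 3 and 56 min, on arrays that the rule did not use, a comparison added after the data were seen. By limma 3.47% of all probe sets rose and 7.55% fell. Of 28 iron genes 3 rose and 2 fell, with a median of 0.57, beside -0.14 over all probe sets. ENB1 was joined by AFT1, the iron-sensing activator, at 1.27 ± 0.27 (SE, adjusted p = 0.0238) and by FTR1, the iron permease that works with FET3, at 1.65 ± 0.44 (adjusted p = 0.0433). CCC1, which stores iron in the vacuole, fell by 1.23 ± 0.31 (adjusted p = 0.0365), as did the zinc and cobalt transporter COT1 by 1.19 ± 0.23 (adjusted p = 0.0166).

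Of 38 pheromone genes 4 rose and 1 fell, with a median of 0.09. Beside PRM10 the genes that rose were PRM5 at 3.93 ± 0.80 (SE, limma adjusted p = 0.0205), PRM7 at 1.46 ± 0.34 (adjusted p = 0.0295) and the MAP kinase FUS3 at 1.20 ± 0.26 (adjusted p = 0.0238). The 1 that fell was MFA2, at -1.18 ± 0.31 (adjusted p = 0.0402). Of 36 wall genes 3 rose and 0 fell, with a median of 0.27, and 2 of them lie outside the 123, SED1 at 3.18 ± 0.56 (adjusted p = 0.0131) and NCA3 at 2.32 ± 0.57 (adjusted p = 0.0352). This list holds only 5 of the 22 genes of the wall group above, in which 11 rose. KTR2, RCR1 and PIR5, among others, were called at 56 min and are not in the list. The list of zinc, copper and vitamin uptake had 5 of 27 genes that rose and 2 that fell. Nitrogen catabolite repression had 0 of 30 that rose and 17 that fell, with a median of -2.07, and the stress genes 0 of 33 and 12, with a median of -1.58.

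Over all 860 list genes 36 rose and 67 fell between 3 and 56 min. With array medians subtracted 53 rose and 53 fell, and with quantile normalization 64 rose and 62 fell. Without BY003 these counts were 2 and 10, and without BY012 59 and 108. Without the -10 min array of BY012 67 rose and 87 fell. At 24 against 7 min, 77 of the 828 list genes outside the 123 were higher and 152 lower by limma, beside 13.1% and 20.1% of all probe sets. These last counts use the arrays of the rule and leave out the genes it took, so nothing is read from them.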

How the data were processed

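The deposited table gives a linear intensity for each probe set on each array. The submitters' processing notes list R 2.10.0, affy and RMA, with neither order nor settings. The log2 of each intensity was taken here without further scaling. Genes come from the supplied platform annotation, with symbols updated through RefSeq. limma 3.58.1 in R 4.3.3 fitted 1 mean per time to all 14 arrays and 5498 S. cerevisiae probe sets (6 residual and 3.31 prior degrees of freedom), with Benjamini-Hochberg adjustment within each comparison over all probe sets. It was also run on simulated data with independent noise on each array. Such data cannot check the assumption that the lone arrays vary like the replicated ones, and nothing is read from that run. Tables and figures used Python 3.11.15 with pandas 2.3.3 and matplotlib 3.10.9. Arrays have no read depth, so precision depends on how many there are. The p-values measure the spread between these experiments, and the labels do not say whether the arrays of 1 experiment come from 1 culture.

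Samples were grouped by time and experiment from the labels. The members and the gene lists were chosen with earlier results of these data known, and the role groups were set after the members were listed. Named genes were the 12 largest differences from 7 to 24 min, the members in the lists, the 5 lowest and highest from 56 to 120 min, the 5 deepest dips, the 5 largest differences from -10 to 24 min, those next to each threshold, the 5 largest called changes from 3 to 14 min, and genes with several probe sets. Alternatives were the scaling, the experiment as a block, trend and robust options, the dimmest 20% left out, each experiment left out, and other thresholds.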

Additional observations from a re-analysis of the deposited data

How the results depend on the processing

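The rule took 136 genes after subtracting array medians (107 shared with the 123), 156 after quantile normalization (104 shared), 101 with at most 0 at 7 min, and 46 with a later difference of at least 1.5. Leaving out BY003, BY008 or BY012 gave 123, 126 and 128 genes, of which 110, 99 and 103 were among the 123. The count thus held more than the membership did. Members called higher at 14 min were 11, and 22 with array medians subtracted, 26 with quantile normalization, 24 by a fold of 2, 2 at an adjusted p under 0.01, and 1 to 22 over experiments left out. Members called lower at 14 min were 5, and 1 with medians subtracted, 1 with quantile normalization, 11 by fold, 0 at 0.01, and 0 to 6. At 56 min 33 were higher, and 52 with quantile normalization, 60 by fold, 9 at 0.01, and 5 to 47, while 0 were lower except 1 by fold. At 120 min 8 were higher, and 19 with quantile normalization, 5 without the dimmest 20%, 36 by fold, 0 at 0.01, and 0 to 17. The 1 lower at 120 min became 0 with quantile normalization, 0 without the dimmest 20%, 2 without the -10 min array of BY012, 6 by fold, 0 at 0.01, and 0 to 2. From 56 to 120 min 0 were lower, and 1 with medians subtracted and 28 by fold. For the list genes at 24 against 7 min, 77 were higher (4 to 58 over experiments left out) and 152 lower (48 to 132). For whole lists at 56 against 3 min, 36 were higher, and 64 with quantile normalization, 67 without the -10 min array of BY012 and 2 to 59 over experiments left out, and 67 lower, with 10 to 108. With experiment as a replicate block the calls were 23 higher at 14 min, 52 at 56 min and 19 at 120 min, and 3 lower from 56 to 120 min, and for whole lists 66 higher and 143 lower. The deviations of arrays of 1 experiment correlated at -0.05 to 0.63 between times, and all but the lowest were positive. The main fit nonetheless did not treat the experiments as paired, so differences between experiments count in its error. Its calls of higher genes at 14, 56 and 120 min are fewer than those with the block. Of the values of single named genes, 2195 of those under an alternative kept their direction and side of the threshold, 83 gained a call, 50 lost it, 31 moved and 0 reversed. The causes were not tested. The 3, 14, 56 and 120 min arrays have no replicate to leave out. Leaving out the -10 min array of BY012 and the replicated times of BY008, and all settings for the list genes, were chosen after seeing the data.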

Other observations

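The 11 probe sets that met both values but were left out by symbol were BAP3, AGP1, SLT2, FRE4, LYS20, LYS1, FRE1, TAT1, LYS2, LYS9 and RSM19. SLT2, the MAP kinase of the wall integrity pathway, had -0.71 from -10 to 7 min, 2.94 from 7 to 24 min and 2.31 from 3 to 56 min in BY008. The amino acid permease genes BAP3 and AGP1 had later differences of 3.85 and 3.62.

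Of the 17 probe sets without a standard name, YPR078C, YDL241W and YOR385W differed by 3.55, 3.16 and 2.99 from 3 to 56 min in BY008. A further 30 of 3470 probe sets with no listed gene met both values. The 3 were picked after their values were seen and were not given a role.

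Next to each other on their chromosomes were 7 pairs of the 123 genes. These were PRP28 and PEX5 on IV, CWP1 and YJU2 on XI, ARG7 and RIM9, CTF13 and SNO1, and SNO1 and SNZ1 on XIII, and TRE1 and SPT14, and TPO3 and TDA6 on XVI. CTF13, SNO1 and SNZ1 lie in a row, and their differences from 3 to 56 min were 1.5, 3.77 and 2.51. That of CTF13 was not called (SE 0.64, limma adjusted p = 0.151), and CTF13 was among the genes near background on part of the arrays. How many pairs another set of 123 genes would hold was not worked out.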
